A study of Homo sapiens with 12 samples.

Results

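The human ZBTB genes, which encode transcription factors with a BTB domain and C2H2 zinc fingers, were followed in A2780 cells exposed to a cell cycle inhibitor. Members were all genes whose current symbol is ZBTB plus a number and at most 1 further letter, with antisense transcripts left out and with array features that name a single gene. This gave 41 ZBTB genes of the 20783 genes in the series. All 41 were measured by 99 probe sets on AFFX, the Affymetrix oligonucleotide array, where 19777 genes were measured in all. Of these, 37 were also measured by 45 probes on ABI, the Applied Biosystems chemiluminescence array, where 17192 genes were measured. ZBTB7C, ZBTB8A, ZBTB42 and ZBTB46 had no single-gene probe on ABI.

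A2780 cells are a long-established line from a human ovarian carcinoma. Treated cells received 3 µM of the inhibitor, which is not named, for 6 hours, and control cells were left untreated. RNA came from attached cells only and was combined into 1 pool per condition, and 3 technical replicate arrays per condition were run on each platform. Every p-value below therefore measures the technical spread between arrays and compares 1 treated with 1 control pool. In such bulk RNA, fewer cells of a kind and less RNA per cell cannot be told apart.

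In proteins of this family the zinc fingers bind DNA, and the BTB domain lets the proteins pair and take up co-repressor complexes such as NCOR, BCOR and SIN3A with histone deacetylases. Most well studied members act as repressors. PLZF (ZBTB16), LRF (ZBTB7A), ThPOK (ZBTB7B) and MIZ1 (ZBTB17) are known for roles in blood cell development and cell cycle control, and Kaiso (ZBTB33), ZBTB4 and ZBTB38 bind methylated CpG.

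AFFX signals are the authors' log2 values, and array medians lay between 5.37 and 5.47. The scale of the ABI signals is not given in the sources used here. They are all positive, with array medians between 1.06 and 1.19, and were taken as linear and turned to log2, an assumption on which all ABI changes rest, so that values below 0 are linear signals below 1. Over all genes the median log2 change, treated minus control, was 0.16 on AFFX and 0.09 on ABI, and the 18 spiked hybridisation control probe sets of AFFX read 0.42 higher in treated arrays. Their part in the changes was not tested. Of 7 epithelial markers on AFFX none was called. The ovarian lineage factor PAX8 read 7.83 in treated and 7.65 in control arrays, and KRT8 and KRT18 lay between 5.93 and 6.26 in both groups, above the platform's median of 5.38 in control arrays. KRT19, at 4.88 and 4.62, and EPCAM, CDH1 and MUC16, between 4.02 and 4.45 in both groups, lay under it. On ABI, of 6 such markers, MUC16 was higher (1.16, limma adjusted p = 0.036) and KRT18 lower (-0.87, adjusted p = 0.028) in treated arrays. PAX8 read -1.07 in treated and -0.55 in control ABI arrays, under the median of all ABI probes in control arrays, 0.04. EPCAM and CDH1 also lay under it in both groups, and KRT8, KRT18 and MUC16 lay above it. None of the 8 leukocyte markers on AFFX and the 9 on ABI passed the test, and their median level was 5.44 and 5.12 in treated and control arrays on AFFX and -1.45 and -1.56 on ABI. Among fibroblast and endothelial markers, COL3A1 was bright on both platforms, at 12.28 and 12.23 on its brightest AFFX probe set and 7.85 and 7.65 on ABI, in treated and control arrays. By the feature chosen for each gene, 2 of 10 such markers were lower in treated arrays on AFFX (COL3A1, by -1.79, and COL1A2, by -1.74) and 1 of 10 was higher on ABI (COL1A1, by 1.13). The part of these markers in the results was not tested.

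Since many ZBTB genes were lower in treated arrays, the start regions of 4 members that were lower on both platforms are shown, each from 250 bases before to 50 bases after the annotated start, on the gene's strand, from RefSeq (GRCh38.p14). ZBTB5 starts on chromosome 9 (chr9:37465401-37465700, minus strand), ZBTB24 on chromosome 6 (chr6:109483170-109483469, minus strand), ZBTB4 on chromosome 17 (chr17:7484200-7484499, minus strand) and ZBTB11 on chromosome 3 (chr3:101677083-101677382, minus strand). Capitals mark matches, on either strand, to the motifs described next.
ZBTB5: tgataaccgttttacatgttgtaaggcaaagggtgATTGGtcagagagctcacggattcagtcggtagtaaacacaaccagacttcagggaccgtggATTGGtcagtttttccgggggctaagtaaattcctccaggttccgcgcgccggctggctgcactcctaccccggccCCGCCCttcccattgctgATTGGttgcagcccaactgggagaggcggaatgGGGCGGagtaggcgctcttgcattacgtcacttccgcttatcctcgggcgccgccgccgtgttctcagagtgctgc
ZBTB24: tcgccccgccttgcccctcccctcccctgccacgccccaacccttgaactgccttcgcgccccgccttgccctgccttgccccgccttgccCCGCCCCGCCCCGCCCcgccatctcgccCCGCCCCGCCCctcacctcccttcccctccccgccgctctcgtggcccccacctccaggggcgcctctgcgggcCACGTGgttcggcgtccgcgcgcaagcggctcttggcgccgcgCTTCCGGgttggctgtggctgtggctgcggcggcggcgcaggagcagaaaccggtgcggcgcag
ZBTB4: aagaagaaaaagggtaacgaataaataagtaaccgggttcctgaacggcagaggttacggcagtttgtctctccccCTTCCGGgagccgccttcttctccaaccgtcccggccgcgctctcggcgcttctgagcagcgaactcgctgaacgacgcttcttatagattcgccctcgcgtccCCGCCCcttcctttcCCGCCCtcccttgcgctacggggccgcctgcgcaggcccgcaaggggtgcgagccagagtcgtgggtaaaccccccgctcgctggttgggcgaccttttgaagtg
ZBTB11: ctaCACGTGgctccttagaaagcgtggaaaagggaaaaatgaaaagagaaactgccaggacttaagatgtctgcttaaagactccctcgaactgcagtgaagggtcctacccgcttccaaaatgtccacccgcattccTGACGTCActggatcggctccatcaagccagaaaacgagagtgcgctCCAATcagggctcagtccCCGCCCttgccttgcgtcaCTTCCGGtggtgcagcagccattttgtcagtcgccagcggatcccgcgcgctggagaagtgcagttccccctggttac

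The motifs searched on both strands were the TATA box (TATAAA), the CCAAT box (CCAAT), the GC box (GGGCGG), the E-box (CACGTG), the cAMP response element (TGACGTCA), an ETS core (CTTCCGG) and the core of a Kaiso element (CTCGCGAG). They do not contain one another, but neighbouring GC boxes can overlap. Start regions were at hand for 35 of the 41 genes, 68 regions in all, of 35116 regions in the table. The ZBTB5 region held 3 CCAAT boxes and 2 GC boxes. In ZBTB24 there were 5 GC boxes, 1 E-box and 1 ETS core, and in ZBTB4 2 GC boxes and 1 ETS core. ZBTB11 held 1 match each to the CCAAT box, GC box, E-box, cAMP response element and ETS core. None of the 4 shown held the TATA letters.

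Across the family, GC boxes stood in 60.3% of the 68 regions against 45.0% of all regions, ETS cores in 20.6% against 10.3%, E-boxes in 11.8% against 7.26%, and cAMP response elements in 5.88% against 1.85%. CCAAT boxes stood in 39.7% against 34.6%, TATA boxes in 8.82% against 11.5%, and the Kaiso core in 0 of the 68 regions against 1.02%. With the regions of a gene averaged first, ZBTB genes had a median of 24.3 CpG per 300 bases and 65.7% G and C, whereas all genes had 14 CpG and 58.3%. Family members that were lower on AFFX had a median of 26.2 CpG over 22 genes, and those not lower had 21 over 13 genes. These are matches to letters and counts of letters, and no test was made of them.

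On AFFX, 26 of the 41 ZBTB genes (63.4%) were lower in treated than in control arrays and 0 were higher. A call here is an adjusted p under 0.05 in limma, with Benjamini-Hochberg adjustment over all probes, and a change of at least 1.5-fold. Over all AFFX genes, 14.2% were lower and 2.49% higher by the same rule. ABI called 12 of 37 members lower (32.4%) and 0 higher, where 14.8% of all genes were lower and 6.31% higher. The same 12 genes were lower on both platforms, a state shared by 10.5% of the 16186 genes measured on both, and 0 members were higher on both, against 0.42% of these genes. The count on both was 8 with the mean of all probes of a gene or with a limit of 2-fold. With replicate numbers as a block in the fit, 5 of the 12 ABI calls were lost. At an unadjusted p under 0.05 and with no fold limit, limma had 4 of 41 members higher on AFFX, where 42% of all genes were, and 2 of 37 on ABI, where 18.5% were. A t-test had 2 on AFFX, where 37% of all genes were higher, and 2 on ABI, where 18.3% were.

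The median log2 change of the ZBTB genes was -0.98 on AFFX and -0.46 on ABI. A change below 0 was seen in 34 of 41 members on AFFX, where 31.2% of all genes were below 0, and in 27 of 37 on ABI, where 45.3% were. Falls that passed the test ran from 1.58-fold to 7.42-fold on AFFX, with a median of 2.52-fold, beside a median of 2.17-fold for all genes that fell there. On ABI they ran from 1.73-fold to 14.3-fold, with a median of 2.86-fold beside 2.69-fold for all falling genes. Members were brighter than the median gene on AFFX, with a median control level of 6.98 against 5.87 for all genes, and close to it on ABI, at 0.66 against 0.73. When only probes at or above the median signal of each platform were kept, 22 of 30 ZBTB genes were lower on AFFX, where 18.9% of all such genes were. On ABI 13 of 22 were lower under this filter, where 25.1% of all genes were. The filter used the mean over treated and control arrays together, so a falling gene can pass it through its control arrays alone. These filtered counts are therefore not read as support. In each of the 38 calls of ZBTB genes made without this filter, treated and control arrays did not overlap. Such a gap follows closely from a call made on the same arrays and adds no support to it. The share of all array features without overlap was not counted.

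**Figure D1:**
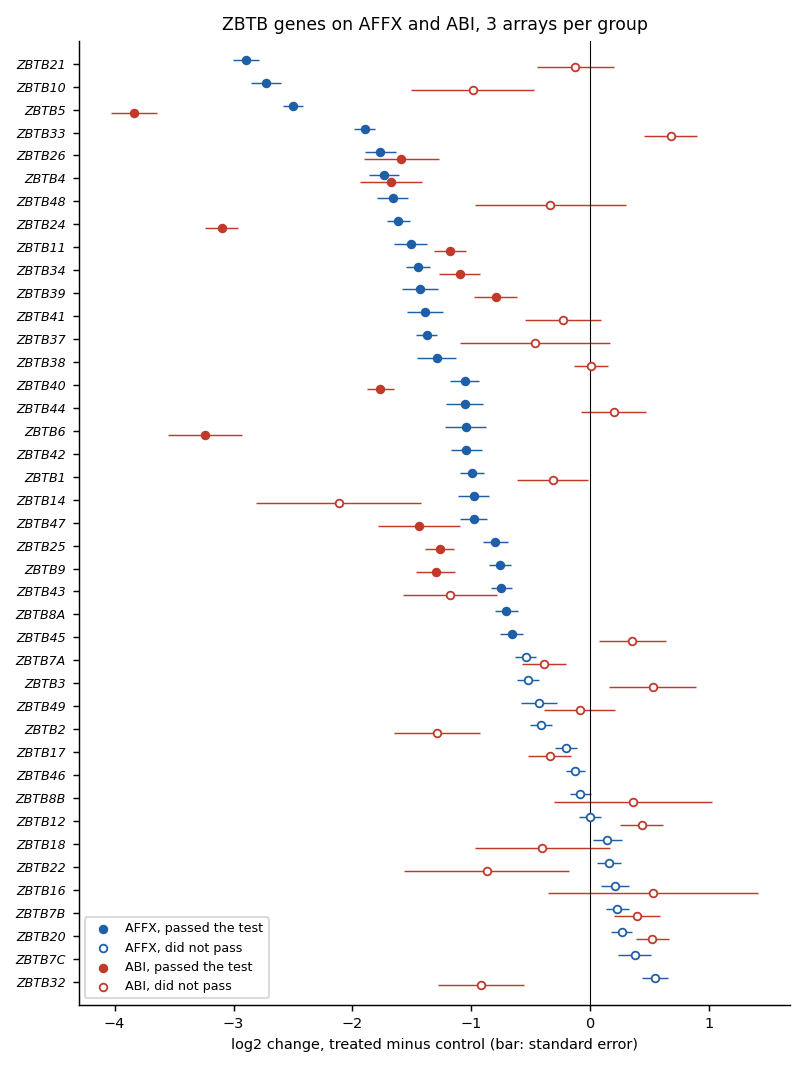
Log2 change (treated minus control, x axis) of each of the 41 ZBTB genes (y axis, ordered by the AFFX change) on AFFX (blue) and ABI (red), with bars for the standard error and filled points for genes that passed the test. Of the AFFX points 26 are filled and of the ABI points 12, all of them left of 0, and the ABI bars are wider for most genes.

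ZBTB5, a repressor described as acting on the p53 and CDKN1A genes, had the largest fall of the family on ABI and the third largest on AFFX. On AFFX it read 6.52, 6.42 and 6.34 in treated arrays, against 8.93, 8.89 and 8.96 in control arrays. On ABI the treated arrays read 1.64, 1.07 and 1.59 and the control arrays 5.39, 5.22 and 5.20. The groups stood well apart on both platforms. ZBTB5 thus fell by 2.50 on the log2 scale on AFFX (SE 0.08, 5.66-fold, limma adjusted p = 9.2e-09) and fell by 3.84 on ABI (SE 0.19, 14.3-fold, adjusted p = 0.00059).

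ZBTB24 encodes a factor that is mutated in ICF syndrome, an immunodeficiency with unstable centromeres, and that activates CDCA7. AFFX gave it 5.08, 5.12 and 4.89 in treated arrays, against 6.64, 6.76 and 6.53 in control arrays. On ABI it had 0.69, 0.59 and 0.39 in treated arrays and 3.77, 3.57 and 3.64 in control arrays. All treated arrays were below all control arrays on each platform. The fall was 3.06-fold on AFFX (log2 change -1.62, SE 0.10, limma adjusted p = 3.4e-07) and 8.58-fold on ABI (-3.10, SE 0.14, adjusted p = 0.00049). The other 2 AFFX probe sets of ZBTB24, both dimmer, changed by -0.40 and -0.24, which were not calls.

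ZBTB6 and ZBTB26 are neighbouring genes on chromosome 9 and both were lower on both platforms. For ZBTB6, AFFX read 2.73, 2.74 and 3.01 in treated arrays, against 4.28, 3.86 and 3.49 in control arrays, which is at the low end of that platform's signals. ABI read -0.84, 0.18 and 0.21 in treated arrays and 3.09, 2.98 and 3.20 in control arrays. The log2 changes were -1.05 (SE 0.17, limma adjusted p = 0.00075) on AFFX and -3.24 (SE 0.31, adjusted p = 0.0025) on ABI, where the control arrays were at percentile 75.8 of all probes, against percentile 20.9 on AFFX.
ZBTB26 had 3.98, 3.65 and 3.90 in treated AFFX arrays and 5.84, 5.65 and 5.34 in control arrays. Its ABI probe gave -0.69, -0.40 and -0.47 in treated arrays, against 1.37, 1.45 and 0.39 in control arrays. The third control array was the lowest of its group on both platforms, though still above every treated array. ZBTB26 changed by -1.76 on AFFX (SE 0.13, limma adjusted p = 1.9e-06) and by -1.59 on ABI (SE 0.31, adjusted p = 0.023), and leaving out any 1 of 5 of the 6 ABI arrays ended the ABI call.

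ZBTB4, one of the family's methyl-CpG binding proteins, had 5.91, 5.55 and 5.36 in treated AFFX arrays and 7.30, 7.28 and 7.43 in control arrays. On ABI it read 0.27, -0.22 and 0.75 in treated arrays, against 1.92, 1.86 and 2.06 in control arrays. Treated arrays were thus lower throughout, with log2 changes of -1.73 on AFFX (SE 0.13, limma adjusted p = 1.7e-06) and -1.68 on ABI (SE 0.26, adjusted p = 0.012). The gene had a second feature on each platform that did not pass the test. Its other AFFX probe set read 6.81, 6.64 and 7.04 in treated arrays and 6.60, 6.84 and 6.85 in control arrays, with overlapping groups. The second ABI probe, a dim one, changed by 0.88 (SE 0.28, limma adjusted p = 0.081).

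ZBTB11, an essential factor linked to genes of mitochondrial function and, when mutated, to intellectual disability, read 6.64, 6.72 and 6.50 in treated AFFX arrays, against 8.42, 8.17 and 7.80 in control arrays. On ABI it had 3.10, 3.40 and 3.38 in treated arrays and 4.49, 4.43 and 4.50 in control arrays. The groups did not overlap, and the log2 change was -1.51 on AFFX (SE 0.14, limma adjusted p = 1.0e-05) and -1.18 on ABI (SE 0.14, adjusted p = 0.0042). A dimmer AFFX probe set of ZBTB11 changed by 0.35, which was not a call.
ZBTB40, whose locus is known from studies of bone density, had 6.75, 6.62 and 7.04 in treated AFFX arrays and 8.04, 7.88 and 7.67 in control arrays. Its ABI values were nearly constant among treated arrays, at 2.72, 2.73 and 2.75, against 4.57, 4.42 and 4.51 in control arrays. The groups did not overlap, with log2 changes of -1.06 on AFFX (SE 0.13, limma adjusted p = 7.5e-05) and -1.77 on ABI (SE 0.11, adjusted p = 0.0009). The other 2 AFFX probe sets of ZBTB40 changed by 0.03 and -0.40, which were not calls. When AFFX treated replicate 3 was left out for ZBTB11, or treated replicate 1 for ZBTB40, another probe set had the smallest p, with a change of 0.44 and -0.49, and the AFFX call was lost.

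ZBTB34 and ZBTB43 form another neighbouring pair on chromosome 9, of which only ZBTB34 was lower on both platforms. ZBTB34 read 5.62, 5.80 and 5.62 in treated AFFX arrays and 7.27, 7.15 and 6.96 in control arrays. ABI gave 3.10, 3.49 and 3.39 in treated arrays, against 4.64, 4.27 and 4.37 in control arrays. Changes were -1.45 on AFFX (SE 0.10, limma adjusted p = 1.1e-06) and -1.10 on ABI (SE 0.17, adjusted p = 0.012). ZBTB43 changed by -0.75 on AFFX, a call, and by -1.18 on ABI with an SE of 0.39, which did not pass (adjusted p = 0.091).

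Both platforms also had lower signals for ZBTB39 and ZBTB47, members about which little is known. On AFFX, ZBTB39 had 6.26, 5.90 and 6.43 in treated arrays and 7.60, 7.88 and 7.40 in control arrays, and on ABI 2.71, 2.26 and 2.25 in treated arrays and 3.36, 3.09 and 3.16 in control arrays. ZBTB47 read 6.78, 7.02 and 6.90 in treated AFFX arrays, against 8.03, 7.96 and 7.66 in control arrays, and 0.53, -0.71 and 0.07 in treated ABI arrays, against 1.18, 1.70 and 1.33 in control arrays. Neither gene's groups overlapped, but the ABI changes of -0.79 (SE 0.18, limma adjusted p = 0.033) and -1.44 (SE 0.35, adjusted p = 0.039) were close to the threshold. Each of these 2 ABI calls ended when any 1 of 5 of the 6 ABI arrays was left out. On AFFX the changes were -1.43 (SE 0.15) and -0.98 (SE 0.11), and the other 2 AFFX probe sets of ZBTB47 changed by -0.01 and -0.03, which were not calls.

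The smallest falls among the 12 on AFFX were those of ZBTB25, described as a repressor of NFAT in T cells, and ZBTB9. ZBTB25 read 4.85, 4.73 and 5.06 in treated AFFX arrays, against 5.59, 5.79 and 5.65 in control arrays, and 0.26, 0.36 and 0.34 in treated ABI arrays, against 1.66, 1.62 and 1.48 in control arrays. ZBTB9 had 7.24, 7.45 and 7.45 in treated AFFX arrays and 8.09, 8.23 and 8.09 in control arrays, and 1.52, 1.79 and 1.82 in treated ABI arrays and 3.22, 2.98 and 2.83 in control arrays. Arrays of each group agreed closely and the groups stood apart. Log2 changes were -0.80 (SE 0.10) and -1.27 (SE 0.12) for ZBTB25 and -0.76 (SE 0.09) and -1.30 (SE 0.17) for ZBTB9, on AFFX and on ABI, and passed the test in limma on both.

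**Figure D2:**
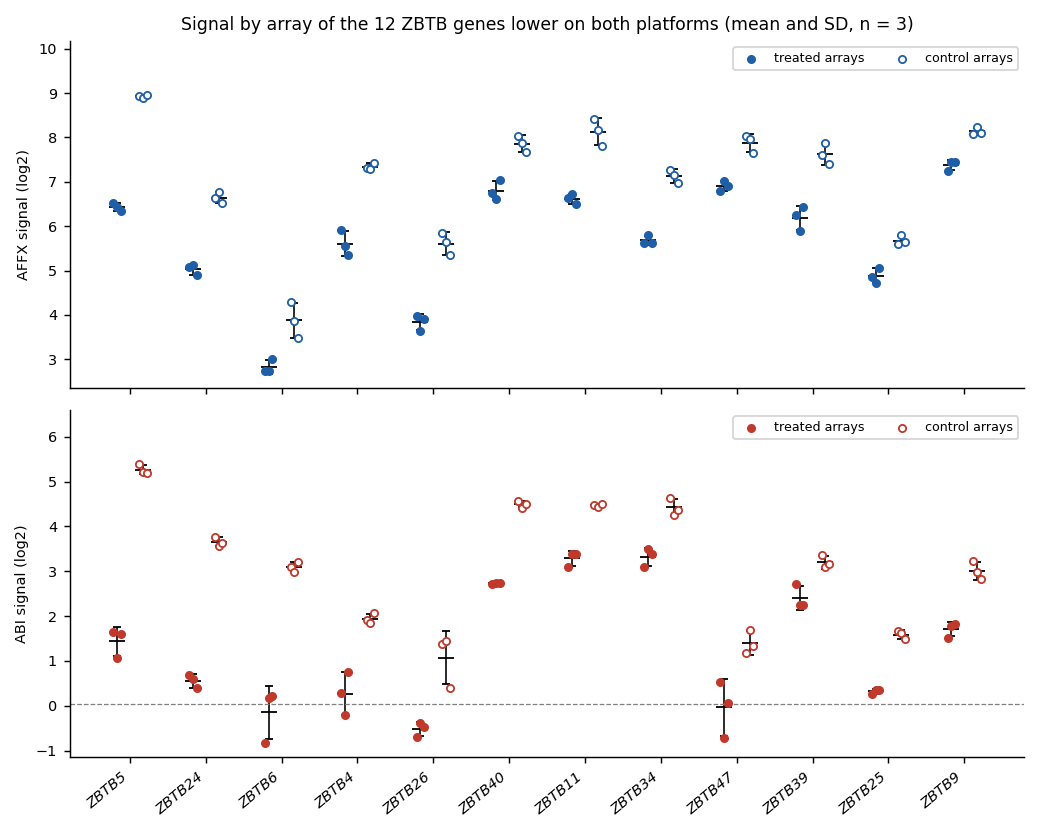
Log2 signal (y axis) on each array for the 12 ZBTB genes lower on both platforms (x axis), AFFX above and ABI below, treated arrays as filled points left of control arrays as open points, with the mean and SD of 3 arrays; the dashed line is the median control level of all ABI probes, 0.04. No treated point reaches a control point of the same gene, which follows closely from a call made on the same arrays and adds no support to it. ZBTB5, ZBTB24 and ZBTB6 have the widest gaps on ABI.

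Another 12 genes were lower on AFFX alone although ABI measured them too. ZBTB21, which pairs with ZBTB14, had the largest fall of all members there, at -2.89 on the log2 scale, or 7.42-fold. The Sp1 antagonist gene ZBTB10 followed at -2.73, then Kaiso (ZBTB33) at -1.90, the telomere binding factor ZBTB48 at -1.66, ZBTB41 at -1.39, ZBTB37 at -1.38 and the methyl-CpG binding ZBTB38 at -1.29. Smaller falls were those of ZBTB44 at -1.06, the lymphoid development factor ZBTB1 at -0.99, ZBTB14, a repressor of MYC, at -0.98, ZBTB43 at -0.75 and ZBTB45 at -0.66. ZBTB42 and ZBTB8A, with no ABI probe, changed by -1.04 and -0.71 on AFFX. No member was called on ABI alone by the chosen features. With the mean of all probes of a gene, ZBTB2 was lower on ABI, at -1.37 (limma adjusted p = 0.016), and changed by -0.41 on AFFX without a call. ZBTB11, ZBTB40 and ZBTB47 were then also lower on ABI alone. In simulated data with 100 probes changed 2-fold, the ABI calls recovered 12% of them and the AFFX calls 91%. In the data 3347 ABI probes were called lower. The adjustment is stricter where fewer probes change, so the simulated shares can be too low for these data. A missing ABI call still does not show that a change was absent.

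On ABI the 12 genes lower on AFFX alone changed by between -2.12 (ZBTB14) and 0.67 (ZBTB33), and 8 of the 12 were below 0. Median control levels were 0.03 for these genes, with a range of -2.09 to 2.87, and 3.15 for the 12 genes lower on both platforms, with a range of 1.07 to 5.27. Among the genes lower on AFFX alone 6 of 12, and among those lower on both 12 of 12, lay above the median of all ABI probes, 0.04. Over all genes 2546 were called lower on ABI, and 2488 in a separate fit that kept only probes at or above the median signal. How many of the 2546 lay above 0.04 in control arrays was not counted, nor was this share over all genes lower on AFFX alone. The 12 of 12 and the 6 of 12 are therefore not read as traits of these members. The part of signal level in the missing calls was not tested. ZBTB38, the brightest of the genes lower on AFFX alone on ABI, had 2.80, 3.04 and 2.77 in treated ABI arrays and 2.96, 2.91 and 2.72 in control arrays, against 6.47, 6.76 and 6.04 in treated and 7.95, 7.66 and 7.54 in control AFFX arrays. Its ABI groups overlapped and the groups of this chosen AFFX probe set did not. The other AFFX probe sets of ZBTB38 changed by -0.21, -0.13, -0.09 and -0.05, which were not calls. The brightest of these read 6.92 in treated and 7.05 in control arrays.

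**Figure D3:**
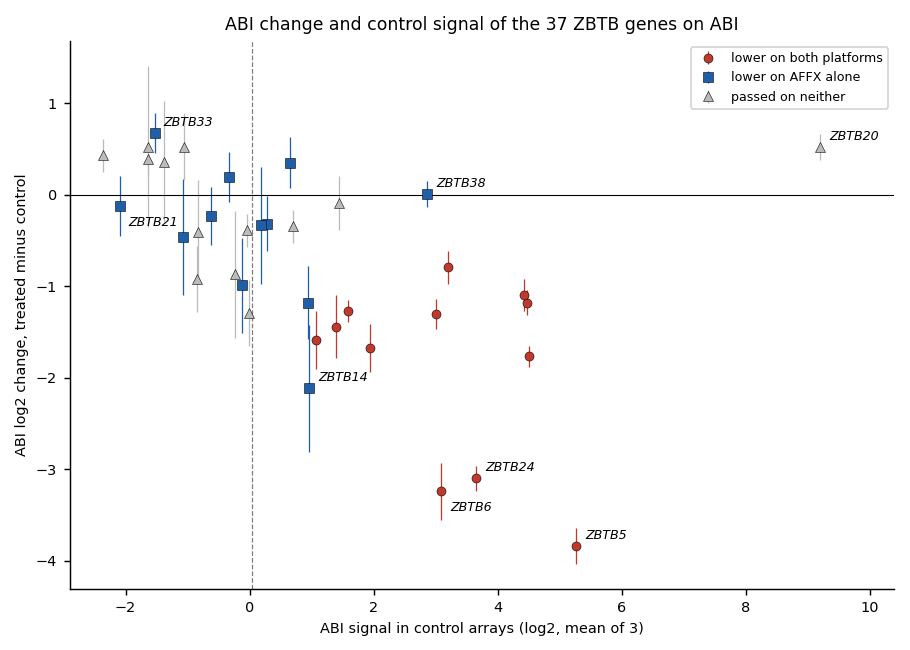
ABI log2 change (treated minus control, y axis, bars for the standard error) against the mean ABI log2 signal in 3 control arrays (x axis) for the 37 ZBTB genes on ABI, marked by the calls on the platforms; the dashed line is the median of all ABI probes. Genes lower on both platforms (circles) have control signals of 1.07 or more, and genes lower on AFFX alone (squares) have control signals between -2.09 and 2.87.

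The difference between the ABI and the AFFX change was tested itself, as an interaction in limma over the 16186 shared genes. It passed in 9 of the 37 ZBTB genes, where 15.1% of all shared genes passed. For ZBTB5, ZBTB6, ZBTB24 and ZBTB40, genes lower on both platforms, the fall was larger on ABI. ZBTB21, ZBTB33, ZBTB38 and ZBTB44 fell on AFFX and had no call on ABI. For Kaiso (ZBTB33) the chosen AFFX probe set read 6.83, 6.86 and 6.93 in treated arrays and 8.93, 8.68 and 8.71 in control arrays. The ABI probe read -0.60, -1.29 and -0.69 in treated arrays and -1.69, -1.47 and -1.43 in control arrays, a low level at percentile 23.6 of all probes. Treated arrays were thus below control arrays on this AFFX probe set and above them on ABI. The ABI change of 0.67 (SE 0.22) did not pass by itself (limma adjusted p = 0.087). The other AFFX probe set of ZBTB33, a dim one, changed by -0.14, which was not a call. The ninth gene was ZBTB32, a lymphocyte factor also called PLZP, whose changes of 0.54 on AFFX and -0.92 on ABI were not calls.

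Across the 37 genes on both platforms, the changes had a Pearson correlation of 0.39 and a Spearman correlation of 0.37, as a description over genes measured from the same 2 RNA pools. The sign was shared by 27 genes, 24 of them below 0. Of the 24 ZBTB genes lower on AFFX and measured on ABI, 12 (50%) were also lower on ABI, and over all genes lower on AFFX this share was 66.6%.

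Several probe sets on AFFX stood for 24 of the ZBTB genes, and they often differed. Of the 99 probe sets, 34 were lower and 2 higher, where 8.95% of all probe sets were lower. On ABI 12 of the 45 probes were lower, where 10.1% of all probes were. In 16 of the 24 genes the probe set that was chosen, by the smallest t-test p, was lower. All probe sets of the gene were lower in 3 of these (ZBTB21, ZBTB26 and ZBTB45), exactly 1 was in 12, and ZBTB10 was in between. ZBTB3 had a probe set called lower, at -0.70, but not the chosen one. Since the same arrays chose the probe set and gave its change, the changes of genes with several probe sets lean away from 0. Of the 17 genes with a single AFFX probe set, where no choice was made, 10 were lower. Over all AFFX genes 14.2% were lower, and the shares over all genes with a single or with several probe sets were not counted.

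Taking instead the probe set with the highest mean signal, 22 ZBTB genes were lower on AFFX, where 11.6% of all genes were, and the calls of ZBTB4, ZBTB37, ZBTB43 and ZBTB44 were lost. With the mean of all probe sets of a gene, 18 were lower, where 9.15% of all genes were, and the calls of ZBTB1, ZBTB11, ZBTB14, ZBTB37, ZBTB38, ZBTB40, ZBTB43, ZBTB44 and ZBTB47 were lost, while ZBTB3 gained one. The family's median log2 change was -0.69 and -0.47 under these choices, with medians of 0.12 and 0.12 for all genes.

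ZBTB10 and ZBTB44 had probe sets called in opposite directions. For ZBTB10, the probe set 219312_s_at read 3.31, 3.24 and 3.51 in treated arrays, against 6.30, 6.12 and 5.82 in control arrays, and 228562_at, the brightest, read 6.13, 6.34 and 5.84 in treated arrays and 7.82, 7.95 and 7.51 in control arrays. In the other direction, 235491_at read 6.79, 6.70 and 6.64 in treated arrays and 6.09, 6.04 and 6.22 in control arrays. Each of these 3 probe sets had groups that did not overlap. Their log2 changes were -2.73 (SE 0.12), -1.66 (SE 0.14) and 0.59, and the other 4 probe sets of ZBTB10 changed by -2.28, -0.88, -0.60 and 0.13, of which the last did not pass. ZBTB44 had 7.19, 7.45 and 6.86 in treated arrays and 8.49, 8.21 and 7.98 in control arrays on 225845_at. On 1554469_at, a dimmer probe set, treated arrays read 4.94, 4.34 and 4.61 and control arrays 3.99, 4.04 and 3.94. The log2 changes of -1.06 and 0.64 both passed in limma, and the other 3 probe sets changed by between -0.38 and -0.14 without passing. With AFFX control replicate 1 left out for ZBTB10, another probe set was chosen, with a change of -0.55, and with treated replicate 1 or 2 left out for ZBTB44 the chosen one changed by 0.49 or 0.79. The call of ZBTB44 as lower was lost without any 1 of AFFX treated replicates 1, 2 and 3. Positions of the probe sets within the transcripts were not analysed here.

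**Figure D4:**
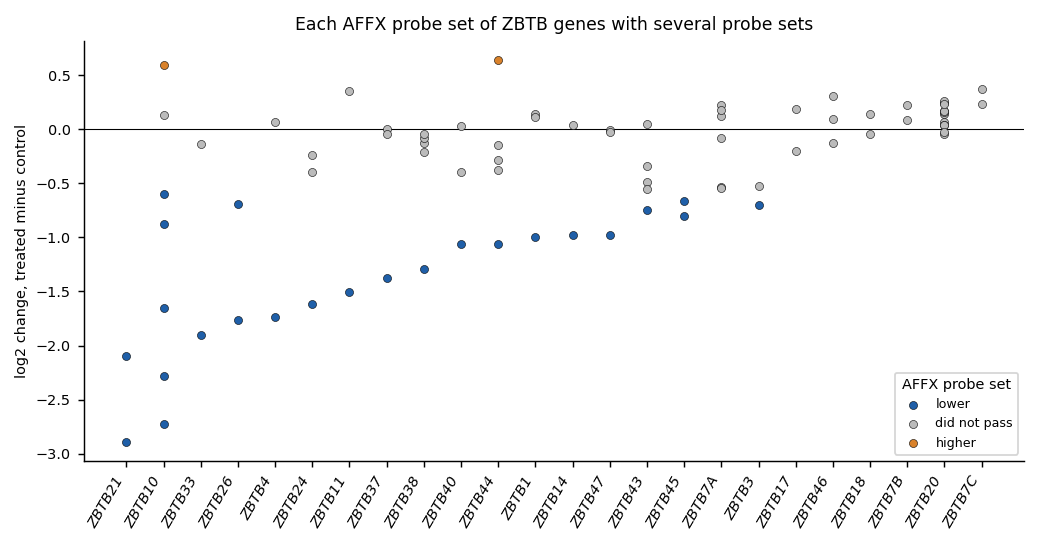
Log2 change (treated minus control, y axis) of every AFFX probe set of the 24 ZBTB genes with several probe sets (x axis, ordered by the change of the chosen probe set), colored by the call. In 12 of the 16 genes called lower a single probe set passed, and ZBTB10 and ZBTB44 each have 1 probe set called higher.

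The 15 ZBTB genes not called on AFFX changed by between -0.54 and 0.54. The 5 brightest of them in control arrays were ZBTB7B, a factor of CD4 T cell fate, with 8.39 in treated and 8.16 in control arrays, ZBTB7A, a repressor of fetal globin genes, with 7.20 and 7.74, ZBTB22 with 7.45 and 7.29, the MYC partner ZBTB17 with 7.02 and 7.22, and ZBTB2 with 6.58 and 6.99. ZBTB7A, ZBTB2, ZBTB3 and ZBTB49 were lower and ZBTB20 and ZBTB32 higher at an adjusted p under 0.05 in limma but under 1.5-fold. The other members of this set were ZBTB7C, ZBTB8B, ZBTB12, ZBTB16, ZBTB18 and ZBTB46. ZBTB16, the PLZF gene, read 4.95 in treated and 4.74 in control AFFX arrays and -1.12 and -1.64 on ABI, under the median of each platform.

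ZBTB20, a repressor known from liver and brain development, had features of very unlike signal. Its 12 AFFX probe sets all lay between 2.79 and 5.16 in treated arrays and 2.81 and 4.90 in control arrays, and none passed. On ABI 1 of its 3 probes was among the brightest of the array (percentile 98.9), with 9.66, 9.68 and 9.82 in treated arrays and 9.35, 9.04 and 9.21 in control arrays. These groups did not overlap, but the change of 0.52 (SE 0.14) was under 1.5-fold and had an adjusted p of 0.050001 in limma. The other 2 ABI probes of ZBTB20 averaged 0.14 and 0.15 in treated arrays, against -1.25 and 0.51 in control arrays.

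Genes for proteins of the same build or the same pathway were read from lists set beside the family. Of the other BTB zinc finger genes, 5 of 7 were lower on AFFX and 5 of 8 on ABI. HIC2, PATZ1, MYNN and GZF1 were lower on both. PATZ1, also called MAZR, changed by -2.94 on AFFX and -3.19 on ABI, falls of 7.70-fold and 9.11-fold, and MYNN by -1.42 and -3.06. Changes of HIC2, a relative of the tumor suppressor HIC1, were -1.77 and -1.05, and those of GZF1 -2.09 and -1.96. Against the backgrounds of 14.2% and 14.8% lower, this list had a median change of -1.42 on AFFX and -1.45 on ABI.

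The shares of all genes lower, to set beside each list that follows, were 14.2% on AFFX and 14.8% on ABI. Of the BTB co-repressor and CUL3 genes, 4 of 15 were lower on AFFX and 4 of 14 on ABI, with medians of -0.19 and -0.17. Over the alternatives these counts ran from 2 to 7 on each platform. SIN3A, a scaffold for histone deacetylases, fell 4.92-fold on AFFX and 7.03-fold on ABI, and HDAC4, a deacetylase that binds BTB repressors, fell 1.95-fold and 2.16-fold. Among partners and targets of ZBTB17, ZBTB33 and ZBTB24, 3 of 8 were lower on AFFX and 4 of 9 on ABI. MYC, which binds ZBTB17, fell 4.93-fold on AFFX and 6.99-fold on ABI, its partner MAX changed by -1.20 and -1.09, and CDKN1A, a gene that ZBTB17 activates, fell 1.74-fold and 2.82-fold. CDCA7, the ZBTB24 target, changed by -0.38 and -0.58, which were not calls. Methyl-CpG reader genes outside the family were lower in 3 of 5 on each platform, namely MBD1 (-0.72 and -0.86), MBD2 (-1.14 and -1.04) and MBD4 (-2.46 and -1.94). No gene of these 4 lists was called higher in limma on either platform, where 2.49% of all genes were on AFFX and 6.31% on ABI. At an unadjusted p under 0.05 with no fold limit, limma had 9 of 35 measured list genes higher on AFFX and 3 of 36 on ABI. A t-test had 9 and 4. The same rule took in 42% and 18.5% of all genes in limma and 37% and 18.3% in the t-test.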

How the data were processed

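A2780 RNA, 1 pool per condition, was measured on 3 AFFX and 3 ABI arrays per condition, and arrays were grouped by condition as the labels give it. For AFFX the authors deposited log2 signals from RMA, which includes quantile normalization (version not given in the sources used here). For ABI the authors deposited intensity values after global median normalization, without detection flags. Their scale is not given in the sources used here, and they were taken as linear and turned to log2. Depth does not apply to arrays, and their number limits the precision.

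ZBTB genes were found by current symbol, after matching the platform annotation to RefSeq by Entrez Gene ID, among features with 1 gene. Treated and control arrays were compared per platform with limma 3.58.1 in R 4.3.3, with Benjamini-Hochberg adjustment over 54613 AFFX probe sets and 33096 ABI probes, control features left out. A gene took the feature with the lowest p in a t-test, which the methods name without its form and which was run here with equal variance. Genes were called at an adjusted p under 0.05 with a change of at least 1.5-fold. The steps were tested on simulated data with the means and spread of each platform's probes. On each platform 100 probes were changed 2-fold and 100 were changed 4-fold, a smaller share than was called in the data. On AFFX they recovered 91% of 2-fold and 99% of 4-fold changes, and on ABI 12% and 52%.

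The members and the gene lists were chosen with earlier results of these data known. Per-array values are given for ZBTB genes called alike on both platforms or with probe sets called in opposite directions, and for ZBTB20, ZBTB33 and ZBTB38, chosen after their values were seen. Other members called on 1 platform are named with their change, the 5 brightest on AFFX stand for those not called, and list genes are named if called on both, apart from CDCA7, chosen after its values were seen. Alternatives covered pairing, scaling, a filter on dim probes, the choice of probe, the fold limit, the test, an offset of 1 on ABI and each array left out. Leaving out arrays with the feature of the full fit kept was added after seeing the data.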

Additional observations from a re-analysis of the deposited data

Results flagged for a closer look

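The change in treated against control arrays differed between the platforms in 9 ZBTB genes, by an interaction in limma (Benjamini-Hochberg adjusted over 16186 shared genes, all 12 arrays). Values are the ABI change minus the AFFX change on the log2 scale, by the feature chosen for each gene on each platform. The fall was larger on ABI for ZBTB6 (-2.19, adjusted p = 0.005), ZBTB24 (-1.48, adjusted p = 0.00026), ZBTB5 (-1.34, adjusted p = 0.0019) and ZBTB40 (-0.71, adjusted p = 0.023). It was smaller or not seen on ABI for ZBTB21 (2.77, adjusted p = 0.00081), ZBTB33 (2.57, adjusted p = 0.00012), ZBTB38 (1.30, adjusted p = 0.0077) and ZBTB44 (1.25, adjusted p = 0.036). ZBTB32 had a difference of -1.46 (adjusted p = 0.033) with a call on neither platform. The ABI control level was at percentile 8.24 of all probes for ZBTB21 and 23.6 for ZBTB33, and at percentile 74.2 for ZBTB38. For ZBTB6 it was the AFFX level that was low, at percentile 20.9. The part of these levels in the differences was not tested.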

How the results depend on the processing

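The count of ZBTB genes lower on AFFX was 26, and it ran from 18 (mean of all probe sets, or at least 2-fold) to 30 (no fold limit) over the alternatives. With no fold limit 2 were higher on AFFX (ZBTB20 and ZBTB32). On ABI the count lower was 12 and ran from 10 (quantile normalization) to 18 (arrays centred on ribosomal protein genes), apart from the replicate block, which gave 7. The same block gave 7 in place of 12 genes lower on both platforms, and 26 on AFFX, the ABI calls of ZBTB9, ZBTB26, ZBTB34, ZBTB39 and ZBTB47 being lost. Without the block, the count on both ran from 8 to 15. Whether replicate numbers pair the arrays was not settled. Deviations of same-numbered arrays correlated at 0.00 to 0.33 on AFFX and -0.01 to 0.07 on ABI. Arrays of different number correlated at -0.34 to 0.32 on AFFX and -0.06 to 0.03 on ABI. Deviations within a group sum to 0, which ties these values to one another, so they cannot decide the question. Centring on ribosomal protein genes moved the median change of all genes to -0.07 on AFFX and -0.52 on ABI, and the ZBTB median relative to it was -0.88 and -0.49, against -1.14 and -0.56 in the values reported. Under log2(signal + 1) on ABI, 19 in place of 9 genes differed between platforms. Of the BTB co-repressor and CUL3 genes, 4 were lower on AFFX, against 2 with the probe set of the highest mean, the mean of all probe sets or at least 2-fold, and 7 with no fold limit. On ABI 4 were lower, against 2 with the replicate block and 7 with ribosomal protein centring. The same centring gave 8 in place of 4 partners and targets lower on ABI, and the mean of all probe sets 1 in place of 3 methyl-CpG reader genes lower on AFFX. With no fold limit, 2 other BTB zinc finger genes, 3 co-repressor and CUL3 genes and 2 partners and targets were higher on AFFX, and quantile normalization had 1 partner or target higher there and 1 methyl-CpG reader gene higher on ABI. The cause of these shifts was not tested.

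With 1 array left out, 24 to 27 were lower on AFFX and 0 to 2 higher, 9 to 13 lower on ABI and 0 to 1 higher, 9 to 13 lower on both, and 6 to 12 differed between platforms. Of the co-repressor and CUL3 genes, 2 (without control replicate 1) to 3 were then lower on ABI and 0 to 1 (without control replicate 2) higher, and 0 to 1 (without control replicate 3) of the partners and targets were higher on AFFX. The single ABI gene higher was ZBTB33, without treated replicate 2. Of the 26 AFFX calls, 21 survived every such loss. ZBTB10, ZBTB11, ZBTB40, ZBTB44 and ZBTB45 did not, and that of ZBTB44 was lost without any 1 of treated replicates 1, 2 and 3. In these refits another probe set can be chosen: the AFFX change of ZBTB11 ran from -1.67 to 0.44 (without treated replicate 3), and that of ZBTB44 from -1.18 to 0.79 (0.49 without treated replicate 1, 0.79 without treated replicate 2). ZBTB4 changed by 0.068 on the AFFX probe set with the highest mean. When the probe set was kept, 25 of 26 AFFX calls held and only ZBTB45 was lost, without treated replicate 2, and on ABI 9 of 12 held, ZBTB26, ZBTB39 and ZBTB47 being lost. The median SD between arrays over ZBTB genes was 0.37 in treated and 0.20 in control arrays on ABI, and 0.14 and 0.13 on AFFX.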
